A study of Mus musculus with 12 samples.

Results

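The genes described here are 40 genes of adipocytes and of the lipid droplet, picked by symbol from a table of 55376 mouse genes. They were measured by RNA-Seq in the proximal part of the colon of 12 mice aged 12 weeks, with 1 library for each of 6 EPR fl/fl and 6 EPR cKO animals. Mice of both groups carried loxP sites around the promoter and exon 1 of EPR, an epithelial long noncoding RNA that the table lists under the symbol Smim31. EPR cKO mice carried in addition a Cre recombinase driven by a CDX2 promoter that is active in the lining of the large bowel and the end of the ileum. The tissue was frozen whole, so each library holds RNA of the epithelium, the muscle wall and any fat left on the outer surface. A total of 37 of the 40 genes were high enough to be tested.

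White adipocytes hold triglyceride in 1 large lipid droplet that is coated by perilipins and CIDE proteins, release it as fatty acids through a chain of lipases, and secrete hormones such as adiponectin and leptin. The transcription factors PPARγ and C/EBPα keep this program on. Several of the same genes also work in the colon epithelium, which expresses PPARγ and makes its own lipids, so not every member marks fat. Brown adipocytes differ by many mitochondria and by UCP1, which turns fuel into heat.

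The targeted gene matched the labels, with EPR counts from 297 to 1474 in EPR fl/fl mice and from 0 to 10 in EPR cKO. Library totals ran from 13093904 to 33211041 counts. Levels are given as counts per 1000000 (CPM) after scaling by the trimmed mean of M values (TMM), with the SD over 6 libraries where a mean is given. The smooth muscle markers set 1 library apart. EPR cKO 1 held the highest summed CPM of the smooth muscle list in the series, 8401, where the remaining EPR cKO libraries held 934 to 2451 and EPR fl/fl held 2799 to 4926. EPR cKO 5 held the lowest smooth muscle sum and the lowest endothelium sum, at 934 and 29.5 CPM. EPR cKO 6 was near it, at 1097 and 32.6 CPM. The groups were compared with the edgeR quasi-likelihood test over all 15952 tested genes, with Benjamini-Hochberg adjustment. Values without EPR cKO 1 follow where they change a call on a member.

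Most of the adipocyte genes varied together from mouse to mouse, and most had lower mean levels in EPR cKO. Adipoq, which encodes adiponectin and is made by adipocytes (mm10, chr16:23146536-23158028, + strand), ran from 58.1 to 181 CPM in EPR fl/fl with a median of 109.6. In EPR cKO it ran from 4.12 to 99.3 CPM with a median of 27.5. EPR cKO 1 lay among the EPR fl/fl libraries, and the other 5 EPR cKO libraries, at 4.12 to 31.4 CPM, lay below all of them. The fold change was −1.73 on the log2 scale (SE 0.57), with an edgeR adjusted p of 0.137, so the difference did not pass the threshold. Without EPR cKO 1 it was −2.44 (SE 0.47, edgeR adjusted p = 0.00486). Of the 12 fits that each left out 1 library, Adipoq passed in this 1 only. Without EPR cKO 5 its log2 fold change was −1.49, and over the 12 fits its edgeR adjusted p rose to at most 0.261.

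Among the 37 tested members, 2 were lower in EPR cKO at an adjusted p under 0.05, Pla2g16 and Pck1, where 1.57% of all tested genes were lower and 2.46% were called in either direction. None was higher by edgeR, DESeq2 or limma-voom, where edgeR called 0.884% of all tested genes higher. With sample quality weights, limma-voom called 19 members lower and 2 higher (Plin3 and Elovl6), beside 11.9% and 8.60% of all tested genes in that fit. At an unadjusted p under 0.05, 15 members were lower and 3 higher, against 7.12% and 11.1% of all tested genes. No member passed the stricter thresholds on adjusted p and fold change that the study set, which 0.169% of tested genes did. With quality weights 1 member (Pck1) passed them, beside 0.345% of tested genes in that fit. Fitted log2 fold changes were below 0 for 32 members and above 0 for 5, with a median of −0.94, whereas they were below 0 for 47.2% of all tested genes with a median of 0.02. Most members moved together from library to library, so these are not counts of independent genes.

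Leaving out EPR cKO 1 changed the counts from 2 to 22 members lower and from 0 to 2 higher, while the shares of all tested genes called rose to 14.4% lower and 7.44% higher. Those lower without it were Adipoq, Lep, Retn, Cfd, Rbp4, Plin1, Plin4, Cidec, Lipe, Pnpla2, Pla2g16, Adrb3, Lpl, Cd36, Fabp4, Slc2a4, Scd1, Acsl1, Pck1, Adig, Acvr1c and Nnat, and those higher were Plin3 and Elovl6. With any other library left out, Pla2g16 and Pck1 were the only members ever called lower. The only member then called higher was Elovl6, without EPR fl/fl 1. In bulk tissue, fewer adipocytes and less RNA per adipocyte cannot be told apart.

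**Figure D1:**
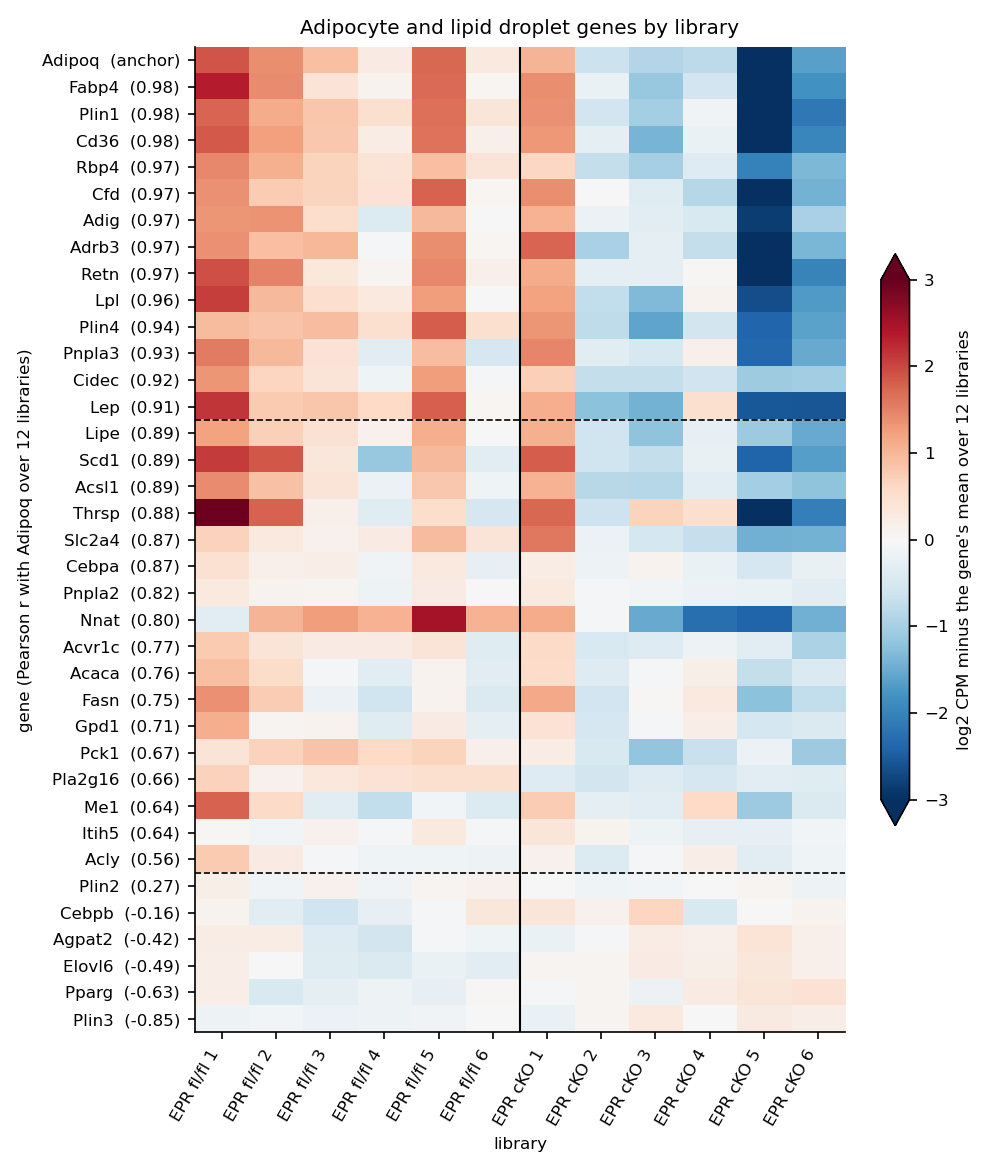
Each cell is the log2 CPM of 1 tested member (rows) in 1 library (columns) minus the mean of that gene over the 12 libraries, with the colour scale ending at 3 in both directions. Rows run from high to low Pearson r with Adipoq, printed beside each name, with dashed lines at r of 0.9 and 0.5 and a solid line between the groups. The upper rows are red in EPR fl/fl 1, 2 and 5 and EPR cKO 1 and dark blue in EPR cKO 5, while the lowest rows are nearly flat.

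To see which members shared the course of Adipoq, each was correlated with it over the 12 libraries on log2 CPM. A member was said to follow Adipoq at a Pearson r of at least 0.9 and to break from it at an r under 0.5. By that measure 13 members followed, 19 lay between and 7 broke, of which 1 (Ucp1) had a single count in the whole series. Over all other tested genes the median r was −0.07, 1.21% reached 0.9 and 77.8% fell under 0.5. Those that followed were Fabp4, Plin1, Cd36, Rbp4, Cfd, Adig, Adrb3, Retn, Lpl, Plin4, Pnpla3, Cidec and Lep, with r from 0.91 to 0.98 and Spearman's rho from 0.88 to 0.99. Their permutation p adjusted over all 15951 genes was at most 0.00285 for r and at most 0.0108 for rho. Without the 2 libraries farthest from the Adipoq median, r for these genes remained between 0.81 and 0.98. With the difference between the groups removed, by taking deviations from the group means, r was 0.83 for Lep, 0.84 for Cidec, 0.89 for Plin4 and 0.93 or more for the other followers.

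The followers were among the genes that varied most between mice of the same group. The biological coefficient of variation (BCV), the spread between animals beyond counting error, was 0.69 for the median follower and 0.19 for the median of all tested genes. Of the 13 followers, 11 were in the top 5% of all tested genes by BCV, and the other 2 were Rbp4 and Cidec, at percentiles 89.8 and 87.7. Among tested members, 23 were lowest in EPR cKO 5 and 23 were highest in EPR fl/fl 1, where 13.6% and 6.70% of all tested genes were. The spread of log2 CPM was larger in EPR cKO for 28 of the 37, against 61.5% of all tested genes. For Adipoq itself, the mean absolute deviation from the group median was 0.59 in EPR fl/fl mice and 0.94 in EPR cKO on the log2 scale. That difference of 0.35 was within what all assignments of these deviations to the groups give (two-sided exact permutation p = 0.489). Without EPR cKO 5 the difference was −0.012.

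Of the 6 secreted proteins, 4 besides Adipoq followed it and Itih5 did not. Cfd, encoding the complement protease adipsin, was the highest member per kilobase of exon in EPR fl/fl, at 303 CPM per kilobase (SD 138). Its CPM ran from 149 to 490.2 in EPR fl/fl (median 236) and from 10.4 to 381 in EPR cKO (median 95.5). These ranges overlapped, with EPR cKO 1 at 381 and EPR cKO 5 at 10.4, and the log2 fold change of −1.11 (SE 0.60, edgeR adjusted p = 0.348) did not pass. Lep, which encodes the satiety hormone leptin, ran from 7.96 to 34.5 CPM (median 13.5) and from 1.22 to 16.4 CPM (median 3.01). Here EPR cKO 4, at 10.7 CPM, also lay within the EPR fl/fl range, and the log2 fold change was −1.60 (SE 0.62, edgeR adjusted p = 0.200). Retn, encoding resistin, had a log2 fold change of −1.32 (SE 0.62, edgeR adjusted p = 0.282), with 0.686 CPM in EPR cKO 5 and 27.1 CPM in EPR cKO 1. Without EPR cKO 1, the log2 fold change was −1.84 for Cfd (SE 0.51, edgeR adjusted p = 0.0237), −2.24 for Lep (SE 0.57, edgeR adjusted p = 0.0158) and −1.87 for Retn (SE 0.58, edgeR adjusted p = 0.0380), so that each passed. Rbp4, the carrier of retinol in blood, came nearest to the threshold among followers.

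Rbp4 was at 16.0 ± 4.81 CPM in EPR fl/fl mice and 5.88 ± 4.07 CPM in EPR cKO. Its libraries ran from 11.4 to 24.1 CPM (median 15.1) and from 2.09 to 13.5 CPM (median 4.78), and EPR cKO 1 alone lay within the EPR fl/fl range. The log2 fold change was −1.45 (SE 0.37, edgeR adjusted p = 0.0634), and the gene passed the threshold in 6 of 10 alternative fits, where its adjusted p ran from 0.00188 to 0.192. Leaving out EPR cKO 1 gave −1.89 (SE 0.28, edgeR adjusted p = 0.00151). The alternative fits include one with a replicate block, which called 4 members lower and 1.12% of all tested genes. Itih5, a secreted hyaluronan-binding protein, stood apart from the other secreted members. It was at 168 ± 18.6 CPM in EPR fl/fl mice and 161 ± 28.2 CPM in EPR cKO (log2 fold change −0.07, SE 0.11, edgeR adjusted p = 0.753), with an r with Adipoq of 0.64 (adjusted permutation p = 0.0855).

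**Figure D2:**
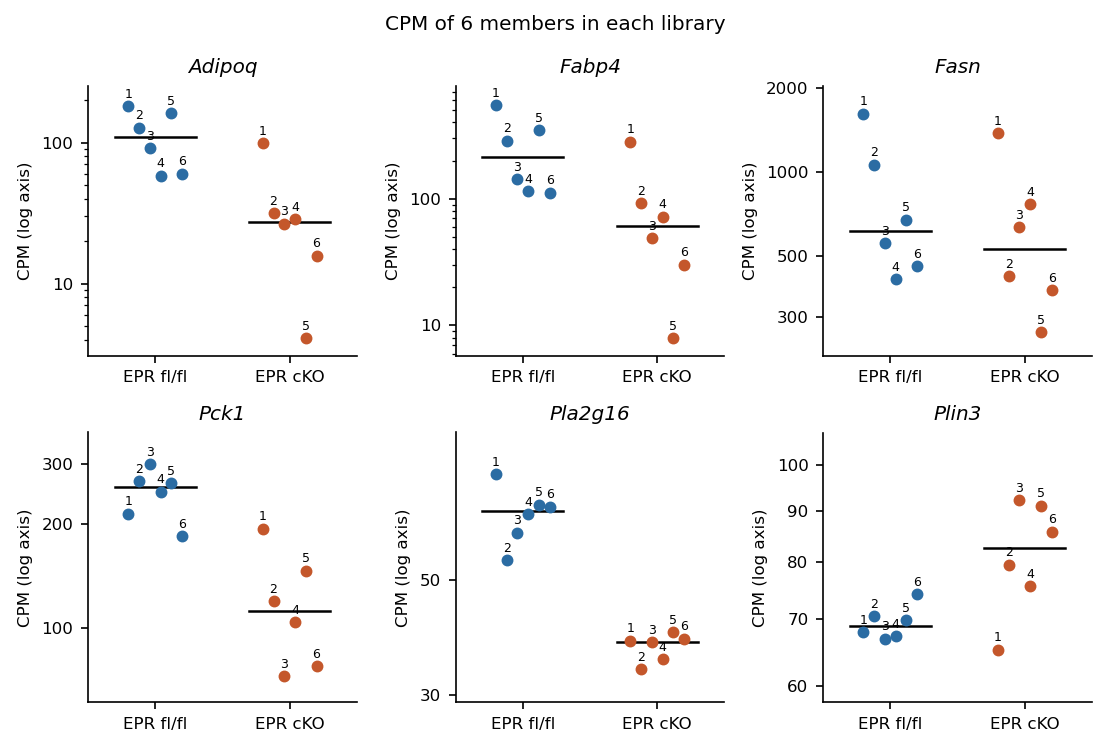
CPM on log axes of Adipoq, Fabp4, Fasn, Pck1, Pla2g16 and Plin3, with 1 point per library, the replicate number above it and the group median as a line. EPR cKO 1 lies within the EPR fl/fl range for Adipoq, Fabp4, Fasn and Pck1, the groups do not overlap for Pla2g16, and Plin3 is lowest in EPR cKO 1, at 65.2 CPM.

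The coat proteins of the lipid droplet divided into those of the adipocyte and those found in most cells. Plin1, the perilipin that guards the adipocyte droplet against lipases, ran from 34.96 to 91.7 CPM in EPR fl/fl (median 53.7) and from 2.06 to 71.2 CPM in EPR cKO (median 15.8), with an r of 0.98. Plin4, a perilipin of small new droplets, ran from 99.96 to 253 CPM (median 134) and from 13.7 to 181 CPM (median 33.2). In both genes EPR cKO 1 lay within the EPR fl/fl range and the other 5 EPR cKO libraries lay below it. Cidec, which fuses droplets into 1 large one, ran from 53.7 to 148 CPM (median 84.9) and from 28.2 to 96.7 CPM (median 36.1). Its log2 fold change was −1.10 (SE 0.35, edgeR adjusted p = 0.120). Without EPR cKO 1 it passed at −1.51 (SE 0.27, edgeR adjusted p = 0.00328), as did Plin1 at −2.22 and Plin4 at −2.25 (edgeR adjusted p = 0.0100 and 0.00151).

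Plin2 and Plin3, the perilipins of other cell types, did not follow. Plin2 was at 77.4 ± 6.36 CPM in EPR fl/fl mice and 72.2 ± 4.66 CPM in EPR cKO, with an r of 0.27 (adjusted permutation p = 0.558) and a BCV at percentile 4.07 of all tested genes. Plin3 ran from 66.9 to 74.2 CPM in EPR fl/fl (median 68.9) and from 65.2 to 92.3 CPM in EPR cKO (median 82.6). It was the member most opposed to Adipoq, with r = −0.85 (adjusted permutation p = 0.00899) and rho = −0.76 (adjusted permutation p = 0.0395). EPR cKO 1 was its lowest library and the other 5 EPR cKO libraries lay above all of EPR fl/fl. Its fold change on the log2 scale of 0.23 (SE 0.08, edgeR adjusted p = 0.160) passed the threshold without EPR cKO 1 (0.27, SE 0.07, edgeR adjusted p = 0.0133).

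Among the 3 transcription factors, Cebpa moved with Adipoq over a small range and the other 2 broke from it. Cebpa, encoding C/EBPα, was at 62.9 ± 11.1 CPM in EPR fl/fl mice and 53.0 ± 9.57 CPM in EPR cKO, with r = 0.87 (adjusted permutation p = 0.00828). Pparg, the master regulator of fat cell formation that is also active in colonocytes, was at 121 ± 20.8 CPM in EPR fl/fl mice and 149.9 ± 24.3 CPM in EPR cKO. Its r with Adipoq was −0.63 (adjusted permutation p = 0.0853) and fell to −0.32 without the 2 libraries farthest from the Adipoq median. The log2 fold change of 0.30 (SE 0.13) had an edgeR adjusted p of 0.234. Cebpb, an early factor of the same family, was at 7.19 ± 1.67 and 8.72 ± 2.22 CPM, with r = −0.16, and 20.7% of its exon bases lie opposite exons of Tmem189, so its counts are uncertain if strand was not used.

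The promoters of Adipoq, of its followers Plin1 and Lep and of both called members are shown for their C/EBP and CCAAT matches. Each is the 250 bases before the RefSeq start (GRCm38.p6), written 5′ to 3′ on the strand of the gene. Capitals mark the C/EBP core TTGCNNAA and the CCAAT box, read on both strands. They lie at chr16:23146286-23146535 for Adipoq, chr7:79732777-79733026 for Plin1 (− strand), chr6:29059971-29060220 for Lep, chr2:173152823-173153072 for Pck1 and chr19:7557209-7557458 for Pla2g16, which RefSeq lists as Plaat3.
Adipoq: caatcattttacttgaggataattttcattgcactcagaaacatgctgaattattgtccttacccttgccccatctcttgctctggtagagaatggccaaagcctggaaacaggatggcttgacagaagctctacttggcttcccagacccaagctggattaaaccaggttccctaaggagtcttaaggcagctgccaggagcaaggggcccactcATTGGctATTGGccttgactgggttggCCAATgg
Plin1: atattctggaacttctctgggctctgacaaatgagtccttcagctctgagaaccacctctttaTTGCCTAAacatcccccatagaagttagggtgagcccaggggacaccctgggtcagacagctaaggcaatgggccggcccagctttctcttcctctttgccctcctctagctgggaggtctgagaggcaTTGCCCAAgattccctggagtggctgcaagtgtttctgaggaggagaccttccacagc
Lep: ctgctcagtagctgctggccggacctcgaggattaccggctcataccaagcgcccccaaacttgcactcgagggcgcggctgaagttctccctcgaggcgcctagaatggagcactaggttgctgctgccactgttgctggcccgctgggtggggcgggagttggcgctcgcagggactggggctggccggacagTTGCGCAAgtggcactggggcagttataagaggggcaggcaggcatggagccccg
Pck1: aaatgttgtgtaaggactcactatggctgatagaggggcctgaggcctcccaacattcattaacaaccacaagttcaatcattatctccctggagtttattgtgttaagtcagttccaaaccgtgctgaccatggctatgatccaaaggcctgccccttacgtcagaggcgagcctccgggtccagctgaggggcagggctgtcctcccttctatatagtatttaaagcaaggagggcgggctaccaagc
Pla2g16: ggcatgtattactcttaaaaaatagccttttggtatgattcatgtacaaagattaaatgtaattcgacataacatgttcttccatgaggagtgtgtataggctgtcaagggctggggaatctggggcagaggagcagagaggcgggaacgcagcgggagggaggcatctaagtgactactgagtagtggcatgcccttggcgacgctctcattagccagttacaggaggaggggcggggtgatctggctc

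The C/EBP core occurred at 2 places before Plin1, 187 and 58 bases upstream of the start, and once before Lep, 55 bases upstream. The CCAAT box occurred 34, 27 and 7 bases upstream of Adipoq. Neither motif occurred in the windows of Pck1 and Pla2g16, nor in those of the followers Retn, Cfd and Adig. A promoter was in the RefSeq table for 33 of the 40 members, with 42 starts, and the C/EBP core was found in 11.9% of these windows (Cidec, Lep, Plin1, Pparg and Rbp4) and in 9.56% of all 32851. For the CCAAT box the shares were 31.0% and 33.8%. No member window held a C/EBP match that overlapped a CCAAT match.

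Among the lipases and genes of triglyceride breakdown was the member whose groups did not overlap, a phospholipase. Pla2g16, a phospholipase of adipocytes that also acts in other cells (mm10, chr19:7557459-7588545, + strand), ran from 54.6 to 79.9 CPM in EPR fl/fl (median 67.9) and from 33.7 to 39.7 CPM in EPR cKO (median 38.0). Every EPR cKO library lay below every EPR fl/fl library, and it was the only tested member whose groups did not overlap, where 1.47% of tested genes were lower without overlap. Its fold change on the log2 scale was −0.85 (SE 0.09, edgeR adjusted p = 0.000136). Pla2g16 did not vary as adipocyte genes did, with a BCV at percentile 14.3, and within the groups its r with Adipoq was 0.22 in EPR fl/fl mice and −0.39 in EPR cKO. EPR cKO 1, high for most members, held 38.2 CPM and EPR cKO 5 held 39.7 CPM. With the mean level of the nonmember adipocyte genes as a covariate its log2 fold change was −0.83 (SE 0.12, edgeR adjusted p = 0.00493), and with the balance of smooth muscle to epithelium as a covariate it was −0.84 (SE 0.11, edgeR adjusted p = 0.000926). It was the only member called under either covariate, and 0.790% and 1.51% of all tested genes were lower under them.

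Lipe, encoding hormone-sensitive lipase, ran from 37.1 to 85.7 CPM in EPR fl/fl (median 56.1) and from 13.04 to 77.9 CPM in EPR cKO (median 20.9), with r = 0.89 and a log2 fold change of −0.98 (SE 0.40, edgeR adjusted p = 0.225). Pnpla2, the lipase that takes the first fatty acid off triglyceride in many tissues, was at 123 ± 13.9 and 108 ± 17.5 CPM. It shared the order of Adipoq (r = 0.82, rho = 0.92) but with far less amplitude, its highest library being 1.37 times its lowest in EPR fl/fl mice and 1.56 times in EPR cKO. Pnpla3, a relative of Pnpla2 that responds to feeding, ran from 2.04 to 8.71 CPM and from 0.499 to 8.26 CPM. Adrb3, the adrenergic receptor that starts lipolysis in fat, reached its highest level in EPR cKO 1 at 19.4 CPM and its lowest in EPR cKO 5 at 0.592 CPM, and its log2 fold change was −0.97 (SE 0.62, edgeR adjusted p = 0.421). Without EPR cKO 1, Adrb3 passed at −1.99 (SE 0.43, edgeR adjusted p = 0.00822), Lipe at −1.55 (SE 0.27, edgeR adjusted p = 0.00321) and Pnpla2 at −0.29 (SE 0.09, edgeR adjusted p = 0.0379). Exons of other genes lie opposite 24.9% of the exon bases of Adrb3 and 15.6% of those of Lipe.

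Uptake genes of fatty acids and glucose were all lower in mean level, with no member past the threshold in all 12 libraries. Fabp4, a fatty acid carrier of adipocytes, macrophages and vessels, ran from 112 to 546 CPM in EPR fl/fl (median 214) and from 7.89 to 283 CPM in EPR cKO (median 60.4). Cd36, a fatty acid receptor, ran from 83.3 to 267 CPM (median 154) and from 7.33 to 186 CPM (median 45.2). Lpl, which frees fatty acids from blood lipoproteins, ran from 169 to 703 CPM (median 281) and from 26.5 to 387 CPM (median 83.2). Log2 fold changes of these genes were −1.54 (SE 0.68), −1.41 (SE 0.62) and −1.33 (SE 0.57), with edgeR adjusted p of 0.256, 0.247 and 0.243. With EPR cKO 1 left out, Fabp4 passed at −2.38, Cd36 at −2.18 and Lpl at −2.02, with edgeR adjusted p of 0.0143, 0.0118 and 0.0122. In the 6 EPR cKO libraries the highest level was 35.8 times the lowest for Fabp4, 25.4 times for Cd36 and 14.6 times for Lpl. Slc2a4, the insulin-responsive glucose transporter that muscle also makes, was highest in EPR cKO 1 at 60.1 CPM, above the EPR fl/fl range of 21.8 to 38.4 CPM. That library held the highest smooth muscle, endothelium and fibroblast sums, and their part in its Slc2a4 level was not tested. The log2 fold change of Slc2a4 was −0.49 (SE 0.46, edgeR adjusted p = 0.583), and −1.26 without EPR cKO 1 (SE 0.24, edgeR adjusted p = 0.00463).

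**Figure D3:**
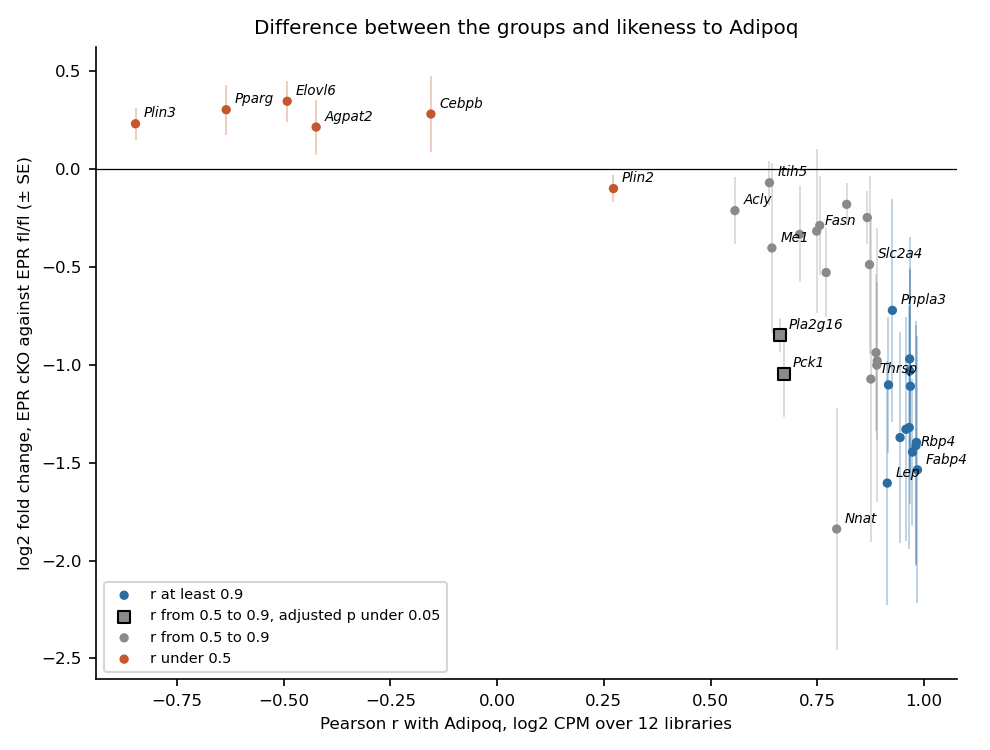
Log2 fold change of EPR cKO against EPR fl/fl, with its SE as a bar, plotted against Pearson r with Adipoq for the 36 tested members other than Adipoq. Both squares, Pck1 and Pla2g16, are the members past an adjusted p of 0.05, and both lie at r between 0.66 and 0.68, to the left of the followers, whose bars are longer.

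Genes of fatty acid and triglyceride synthesis did not share 1 course. Scd1, the desaturase that makes oleate, ran from 293 to 2751 CPM in EPR fl/fl (median 1042) and from 121 to 2296 CPM in EPR cKO (median 410.4). Together with Fasn, the fatty acid synthase, it took between 18.0% and 47.3% of all counts of the 40 genes in a library. Fasn ran from 413 to 1622 CPM (median 616) and from 265 to 1380.4 CPM (median 528), and the groups overlapped almost fully (log2 fold change −0.32, SE 0.42, edgeR adjusted p = 0.700). Thrsp, a lipogenic regulator, had the widest range of all, from 0.53 CPM in EPR cKO 5 to 123 CPM in EPR fl/fl 1. All 3 genes were lowest in EPR cKO 5 and highest in EPR fl/fl 1, as Adipoq was. Without EPR cKO 1, Scd1 passed at a log2 fold change of −1.99 (SE 0.57, edgeR adjusted p = 0.0258), while Fasn and Thrsp did not (edgeR adjusted p = 0.183 and 0.151).

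Another shared course appeared when Fasn was taken as the reference, a choice made after the values were seen. Over the 12 libraries, r with Fasn was 0.99 for Acaca (acetyl-CoA carboxylase), 0.94 for Me1 (malic enzyme), 0.93 for Scd1, 0.91 for Thrsp and 0.91 for Gpd1 (glycerol-3-phosphate dehydrogenase). Adjusted over all tested genes, the permutation p of these relations was 0.0228, 0.0228, 0.0399, 0.0228 and 0.0354. Spearman's rho for the same relations ran from 0.92 to 0.98, with adjusted permutation p from 0.0532 to 0.112, so none passed on ranks, and without the 2 libraries farthest from the Fasn median r was 0.85 to 0.99. These genes had r with Adipoq of 0.76, 0.64, 0.89, 0.88 and 0.71. Acly (ATP citrate lyase) and Acsl1 (an acyl-CoA synthetase) had r with Fasn of 0.86 and 0.84, with adjusted permutation p of 0.120 and 0.146. The log2 fold changes of Acaca, Acly, Me1, Acsl1 and Gpd1 lay between −0.94 and −0.21, with edgeR adjusted p from 0.239 to 0.632, and without EPR cKO 1 Acsl1 passed at −1.48 (edgeR adjusted p = 0.00467). Acaca shared 30.4% and Me1 22.9% of their 50-base stretches with a gene of near-identical sequence, so their levels are uncertain where reads could be split.

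Elovl6 and Agpat2, which lengthen fatty acids and build triglyceride precursors, followed neither reference over the 12 libraries. Elovl6 ran from 117 to 181 CPM in EPR fl/fl (median 132) and from 167 to 200.1 CPM in EPR cKO (median 176). The log2 fold change of 0.35 (SE 0.11, edgeR adjusted p = 0.109) was the highest of any member and passed the threshold without EPR fl/fl 1 or without EPR cKO 1 (0.35 and edgeR adjusted p = 0.0438 without EPR cKO 1). Agpat2 was at 101 ± 21.4 and 117 ± 16.9 CPM (log2 fold change 0.22, SE 0.14, edgeR adjusted p = 0.427). Within EPR fl/fl, r with Adipoq was 0.83 for Elovl6 and 0.76 for Agpat2 (exact permutation p = 0.0472 and 0.0875). Within EPR cKO it was −0.84 and −0.91 (exact permutation p = 0.0431 and 0.0208). With Fasn as the reference, r was 0.99 for Elovl6 and 0.87 for Agpat2 within EPR fl/fl, and −0.57 and −0.71 within EPR cKO. In both genes EPR cKO 5, lowest in Adipoq, was the highest library of the series, at 200.1 CPM for Elovl6 and 142 CPM for Agpat2. The difference between the groups in r was not tested, and no relation with Adipoq within a group passed after adjustment over all tested genes, the lowest adjusted value being 0.335.

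**Figure D4:**
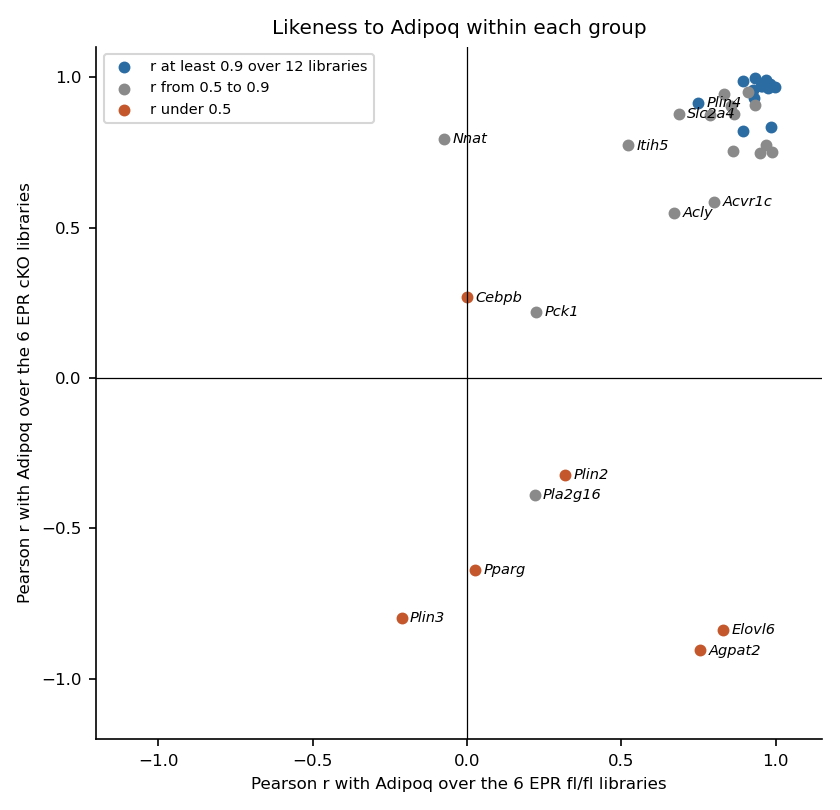
Pearson r with Adipoq over the 6 EPR fl/fl libraries (horizontal) and over the 6 EPR cKO libraries (vertical) for the 36 tested members other than Adipoq, coloured by r over all 12. Followers gather in the upper right corner, with lowest r of 0.75 in EPR fl/fl mice and 0.82 in EPR cKO, Elovl6 and Agpat2 lie in the lower right, and Pck1 and Pla2g16 lie near the centre.

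Pck1 (mm10, chr2:173153048-173159273, + strand) was the other member past the threshold. It encodes an enzyme on the path to the glycerol part of triglyceride in fat and to glucose in liver and gut epithelium. Pck1 ran from 185 to 299 CPM in EPR fl/fl (median 256) and from 72.9 to 194 CPM in EPR cKO (median 112). The ranges met only at their ends, with EPR cKO 1 at 194 CPM and EPR fl/fl 6 at 185 CPM. Its fold change on the log2 scale was −1.05 (SE 0.22, edgeR adjusted p = 0.0246). Over the 12 libraries r with Adipoq was 0.67 (adjusted permutation p = 0.0601) and rho 0.76 (adjusted permutation p = 0.0391), but within each group r was 0.22. EPR cKO 5, lowest in Adipoq, held 147 CPM of Pck1, behind only EPR cKO 1 in its group. It also did not follow Fasn, with r = 0.30. The call was lost with the adipocyte covariate (log2 fold change −0.84, SE 0.27, edgeR adjusted p = 0.236), with the tissue covariate (−0.83, SE 0.23, edgeR adjusted p = 0.0858), and without EPR fl/fl 3, EPR fl/fl 4, EPR cKO 2 or EPR cKO 4, where its adjusted p rose to at most 0.0674.

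Of the remaining 3 tested members, 1 followed Adipoq and 2 lay between. Adig, a small adipocyte protein, followed Adipoq (r = 0.97) at 4.83 ± 2.21 CPM in EPR fl/fl mice and 2.38 ± 1.89 CPM in EPR cKO. Acvr1c, the ALK7 receptor of fat, was at 40.7 ± 9.97 and 28.2 ± 10.6 CPM, with r = 0.77. Nnat, an imprinted gene of adipocytes and neurons, had the largest fold change of any member, −1.84 on the log2 scale (SE 0.62, edgeR adjusted p = 0.148). It ran from 7.18 to 51.6 CPM in EPR fl/fl (median 18.9) and from 1.65 to 19.9 CPM in EPR cKO (median 3.23). Its r with Adipoq was −0.07 within EPR fl/fl mice and 0.79 within EPR cKO. With EPR cKO 1 left out, Nnat, Acvr1c and Adig passed at −2.63, −0.76 and −1.55 (edgeR adjusted p = 0.00543, 0.0117 and 0.0301). EPR fl/fl 1, which led most adipocyte genes, was the lowest EPR fl/fl library of Nnat at 7.18 CPM.

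Of the members linked to brown fat, Ucp1 was at the limit of detection, and Cidea and Cox8b were detected below the level needed for testing. Ucp1, the uncoupling protein that defines brown fat, had 0 counts in the 6 EPR fl/fl libraries, where up to 3 counts over the group cannot be told from 0, and 1 count in EPR cKO. Cidea, a droplet protein of brown and some white adipocytes, had 77 and 49 counts in all, and Cox8b, a mitochondrial subunit of brown fat and muscle, 122 and 49. These 3 genes were not tested. Of 11 nonmember genes of brown fat activation, 8 were tested and none was called in either direction, with a median log2 fold change of −0.21. At an unadjusted p under 0.05 by edgeR, 1 of them was lower (Ebf2) and 1 higher (Cox7a1), against 7.12% and 11.1% of all tested genes. Of these, limma-voom called Ebf2 lower, beside 327 of all 15952 genes, and DESeq2 called Cox7a1 higher, beside 440 of 15910.

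Fold changes of nonmember genes were all below 0 in the adipocyte list and of mixed sign in the droplet and synthesis lists. Of 12 tested adipocyte genes outside the list, all had a log2 fold change below 0, with a median of −1.09, and 1 passed the threshold, Lgals12, a galectin of adipocyte droplets (19.6 ± 3.48 against 11.4 ± 2.02 CPM, log2 fold change −0.78, SE 0.14, edgeR adjusted p = 0.0133). That call was lost with the tissue covariate and the adipocyte covariate (adjusted p = 0.0558 and 0.228). The highest of them, Car3, a carbonic anhydrase of fat and muscle, was at 484 ± 251 and 164 ± 182 CPM and did not pass (edgeR adjusted p = 0.218). Among 18 tested genes of the droplet and of triglyceride handling, 12 were below 0 and 6 above, with a median of −0.34. The call in that list was Angptl4, a secreted inhibitor of lipoprotein lipase, whose groups did not overlap (8.42 to 24.0 against 2.71 to 8.06 CPM, log2 fold change −1.66, SE 0.34, edgeR adjusted p = 0.0218). Its call was lost with the replicate block, the tissue covariate and the adipocyte covariate (adjusted p up to 0.262 in the 10 alternative fits), and without EPR fl/fl 3, EPR cKO 4, EPR cKO 5 or EPR cKO 6 (up to 0.0589). Of 12 regulators of fatty acid synthesis, which include Srebf1, Srebf2 and Scd2, none was called by edgeR or limma-voom, and their median log2 fold change was 0.07. At an unadjusted p under 0.05 by edgeR, 4 were higher (Scap, Srebf1, Srebf2 and Scd2) and 0 lower, against 11.1% and 7.12% of all tested genes. DESeq2 called 3 of these higher (Scap, Srebf2 and Scd2), where it called 440 of 15910 genes higher. The highest of them, Scd2, was at 423 ± 68.6 CPM in EPR fl/fl mice and 653 ± 189 CPM in EPR cKO (edgeR adjusted p = 0.0992).

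The 10 nonmember genes most like Adipoq over the 12 libraries were Car3, Cib2, Glb1l2, Amy1, Acss3, Trarg1, Nnmt, Serpina3c, Cyp2e1 and Sbsn, with r from 0.98 to 0.99. Among members, Fabp4 ranked 10th of 15951 genes by r, Plin1 11th and Cd36 13th. For the 10 nonmember genes the edgeR adjusted p ran from 0.0768 to 0.248.

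Markers of the other cells of the colon wall moved with these genes. The summed CPM of the smooth muscle list (8 of 8 genes tested, led by Myh11, Acta2 and Des) had r = 0.81 with Adipoq on the log2 scale, endothelium (8 of 8, led by Pecam1, Kdr and Plvap) 0.82, enteric glia and neurons (7 of 7, led by Ret, Uchl1 and Elavl4) 0.79 and fibroblasts (8 of 8, led by Col3a1, Col1a2 and Dcn) 0.77. Macrophage genes (8 of 8, led by Csf1r, Mrc1 and C1qa) gave 0.66, mesothelium (6 of 6, led by Upk3b, Gpm6a and Msln) 0.59 and lymphoid tissue (3 of 6, led by Ighm, Cd79b and Ms4a1) 0.33. Epithelium (9 of 9, led by Krt8, Lgals4 and Krt19) gave −0.73, and pancreas, where Cela1 made most of the sum and Pnlip and Cela2a were near 0, −0.85. Adjusted over the 14 lists, the permutation p was at most 0.0494 for these lists apart from lymphoid tissue. Among single genes, 20.6% of all 15951 had an adjusted permutation p under 0.05 for r with Adipoq. Spearman's rho for the same lists ran from 0.63 to 0.80 in size, with adjusted permutation p of at most 0.0409. Without the 2 libraries farthest from the Adipoq median, r fell to between 0.42 and 0.80 in size. Within EPR fl/fl alone, r lay between −0.24 and 0.54 for these lists (−0.10 for smooth muscle), while within EPR cKO it lay between 0.62 and 0.89 in size (0.86 for smooth muscle).

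In range over libraries, smooth muscle summed to 2799 to 4926 CPM in EPR fl/fl mice and 934 to 8401 CPM in EPR cKO, endothelium to 54.9 to 68.8 and 29.5 to 85.8 CPM, fibroblasts to 992 to 1758 and 468 to 3112 CPM, and epithelium to 8789 to 12718 and 10063 to 15801 CPM. No gene of these lists was at 0 in all libraries. With all 12 libraries, no gene of the smooth muscle, endothelium, fibroblast, glia, macrophage, mesothelium, lymphoid, pancreas or epithelium lists passed by edgeR or limma-voom. At an unadjusted p under 0.05, 1 was lower (Emcn) and 4 higher (Krt8, Krt19, Cldn7 and Cela1) by edgeR, against 7.12% and 11.1% of all tested genes. DESeq2 called 2 higher (Cldn7 and Cela1), where it called 440 of 15910 genes higher. Calls on these genes without EPR cKO 1 are not given here. Apart from EPR cKO 1, the EPR cKO libraries summed to 934 to 2451 CPM for smooth muscle, below all of EPR fl/fl. For endothelium and fibroblasts EPR cKO 2, at 66.7 and 1453 CPM, lay within the EPR fl/fl range. Skeletal muscle genes summed to 15.2 to 24.5 and 16.7 to 38.9 CPM, and 2 of the 6 were tested. Of these, Acta1 was higher in EPR cKO (5.24 ± 1.30 against 11.9 ± 3.31 CPM, edgeR adjusted p = 0.0127), while Ckm had a log2 fold change of −0.39. Acta1 passed in 8 of 10 alternative fits, where its adjusted p rose to at most 0.261. With the smooth muscle to epithelium balance as a covariate, the log2 fold change of Adipoq was −1.22 (SE 0.45, edgeR adjusted p = 0.217). The part of these cells in the differences of the other members was not tested beyond that covariate.

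**Figure D5:**
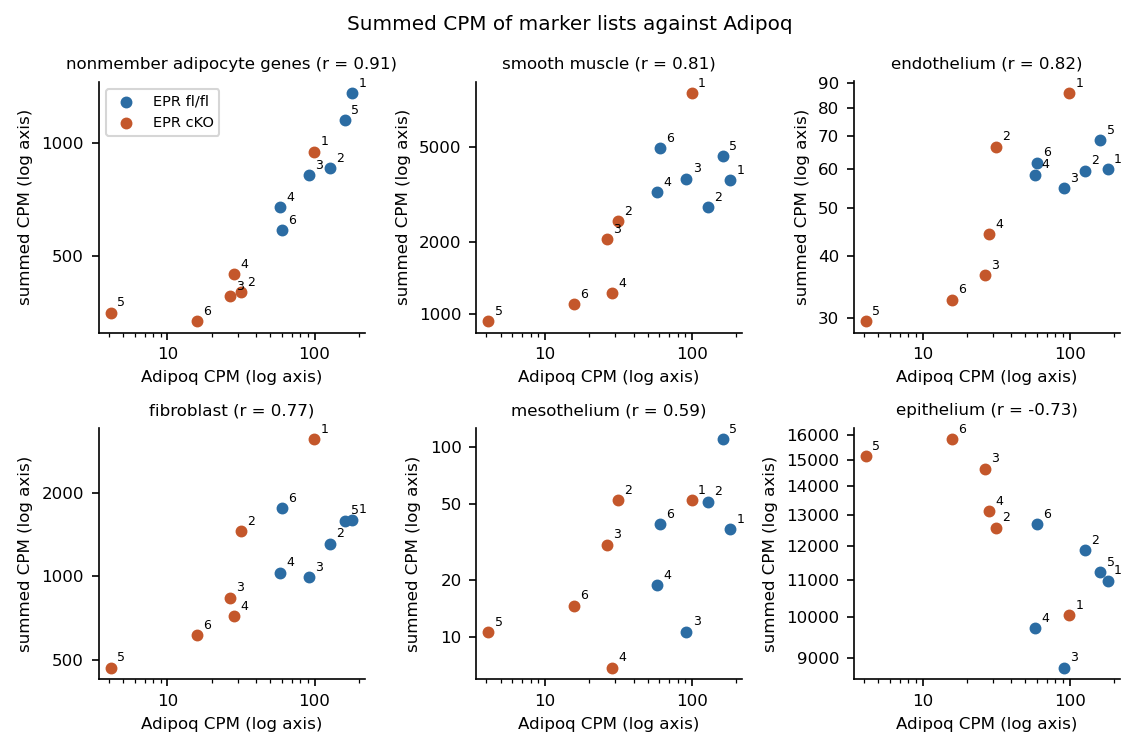
Summed CPM of 6 marker lists against Adipoq CPM, both on log axes, with 1 point per library and its replicate number beside it, and r on the log2 scale in each title. EPR cKO 1 is the highest library for smooth muscle, endothelium and fibroblast genes, EPR cKO 5 is the lowest in Adipoq and in those lists, and epithelial genes run the other way.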

How the data were processed

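Whole proximal colon was sequenced by the authors with an Illumina stranded total RNA kit on a NovaSeq. Reads were trimmed with Trimmomatic, aligned to mm10 with STAR 2.5.3a and counted per gene with featureCounts. The authors deposited raw counts of 55376 genes for 12 libraries, with a gene length column. How featureCounts treated strand and reads with several matches is not given in the sources used here. The 40 members and all gene lists were chosen with earlier results of these data known.

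Genes with at least 1 CPM in at least 4 libraries were kept (15952), scaled by TMM and compared with the quasi-likelihood test of edgeR 4.0.16 in R 4.3.3, all 12 libraries in 1 fit and no covariate, with Benjamini-Hochberg adjustment over all tested genes. This was tested on simulated data. Correlations used log2 CPM with a prior count of 2 and 100000 permutations, two-sided, adjusted over all 15951 genes rather than over the 39 relations as planned. Relations within a group used all 720 pairings. The smallest p that the permutations give is 1e-05. All members were described, and of the other lists the called genes and the 3 highest on average. DESeq2 1.42.0 and limma 3.58.1 served as alternatives, beside other scalings and filters, covariates, a replicate block and leaving out each library. Each library is 1 animal, and none of the 30 pairs within a group agreed within sampling noise. Intervals are not given, and the SE is printed beside most log2 fold changes.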

Additional observations from a re-analysis of the deposited data

Results flagged for a closer look

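In 2 of 74 sets of 6 libraries, 1 library lay far from the other 5 on log2 CPM. The rule was Dixon's criterion for 6 samples at the 95% level, where chance gives about 3.7. Plin4 was at 253 CPM in EPR fl/fl 5, against 99.96 to 139 CPM in the other EPR fl/fl libraries. Cidec was at 96.7 CPM in EPR cKO 1, against 28.2 to 39.1 CPM in the other EPR cKO libraries. A library that stands apart in CPM need not be flagged on the log2 scale. Adipoq, at 99.3 CPM in EPR cKO 1 against 4.12 to 31.4 CPM in the other EPR cKO libraries, was not flagged.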

How the results depend on the processing

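Pla2g16 was called lower in all 10 alternative fits and in all 12 fits without 1 library, and Pck1 in 8 of each. The 2 members called lower became 4 with DESeq2, 5 with limma-voom, 19 with limma-voom and sample quality weights, and 1 with the tissue covariate or the adipocyte covariate. Leaving out 1 library gave 1 (without EPR fl/fl 3, EPR fl/fl 4, EPR cKO 2 or EPR cKO 4) to 22 (without EPR cKO 1). Over all tested genes, 251 lower became 473 with DESeq2, 327 with limma-voom, 1891 with quality weights and 2273 without EPR cKO 1. Members called higher went from 0 to 2 with quality weights and ranged from 0 to 2 without 1 library. Past the study thresholds, 1 was called with quality weights and 0 without any 1 library. In the nonmember pathway lists, 2 genes lower became 5 with DESeq2, 4 with limma-voom, 17 with quality weights, 1 with the tissue covariate and 0 with the adipocyte covariate, and 1 to 19 without 1 library, and 0 higher became 5 with DESeq2, 6 with quality weights and 0 to 5 without 1 library. Over all tested genes, 141 higher became 440 with DESeq2, 1372 with quality weights and 1178 without EPR cKO 1. Followers of Adipoq numbered 12 to 16 without 1 library. The difference in spread of Adipoq ranged from −0.012 (without EPR cKO 5) to 0.52. The cause of these changes was not tested.

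Log2 fold changes turned positive with the adipocyte covariate, which is itself built from fat genes, for Retn (0.41), Cfd (0.42), Itih5 (0.17), Plin1 (0.10), Cebpa (0.13), Pnpla2 (0.086), Pnpla3 (0.79), Adrb3 (0.40), Lpl (0.15), Cd36 (0.14), Fabp4 (0.28), Slc2a4 (0.41), Scd1 (0.57), Fasn (0.80), Acaca (0.38), Acly (0.11), Me1 (0.78), Acsl1 (0.015), Gpd1 (0.31), Thrsp (1.42) and Adig (0.30). With the tissue covariate they did so for Itih5 (0.12), Slc2a4 (0.043) and Fasn (0.012). Without 1 library, Fasn ranged from −0.71 to 0.0062 and Me1 from −0.63 to 0.12, each positive without EPR fl/fl 1.

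Between same-numbered libraries of both groups, r of the deviations from the group means ran from −0.24 to 0.34. The best match was at the own number in 2 of 6. These correlations cannot show whether the numbers pair the animals. With a replicate block, 4 members were lower (Rbp4, Pla2g16, Pck1 and Acvr1c) and 178 genes lower and 67 higher over all tested genes. Over all genes, 251 were lower and 141 higher, against 473 and 440 with DESeq2, 1891 and 1372 with quality weights, 126 and 20 with the adipocyte covariate, 241 and 87 with the tissue covariate, 247 and 39 with total counts, 243 and 54 with no filter, and 2273 and 1178 without EPR cKO 1.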
